A study of Mus musculus with 9 samples.

Results

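The mitochondrial respiratory chain after complex I, with the enzyme it feeds, is described here through 36 nuclear genes. They encode the 4 subunits of complex II (succinate dehydrogenase), 9 subunits of complex III (the cytochrome bc1 complex), cytochrome c, 6 subunits of complex IV (cytochrome c oxidase), 15 subunits of complex V (ATP synthase) and the ATP synthase inhibitor. The genes were listed by name, with earlier results of these data known. Subunits of complex IV that exist as pairs of tissue isoforms were not in the list. All 36 were found among the 55416 gene rows of the count table, 20 by their current symbol and 16 by an older one.

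RNA of interscapular brown fat was sequenced in 9 samples from C57BL/6J mice that expressed Cas9, the nuclease that cuts DNA where a guide RNA directs it. The labels give 5 samples that received a control guide RNA and 4 that received a guide RNA against Ucp1, in both cases carried by an AAV8 vector (an adeno-associated virus) injected into the brown fat itself. Mice were 8 to 10 weeks old and were housed at 22 °C for 14 days. Which cells expressed Cas9 is not given in the labels, both groups carried Cas9 and a vector, and the RNA is that of whole tissue, in which fewer cells of a type and less RNA per cell cannot be told apart.

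The 9 count columns are named by a number and the abbreviation BAT, and none of these numbers occurs in a label. No column was therefore assigned to a guide, the guides were not compared, and each library is given by its own value. The libraries are named A to I here, in the order of the numbers in their column names, and values listed for all libraries follow that order. Levels are CPM, the counts scaled to the same column sum of 1000000, and between genes they are compared per kilobase of coding sequence. No test was run on them, because no column has a known group. Column sums ran from 15460829 to 17909534 counts, 22.3 to 33.9% of which belonged to the mitochondrial genome. The 9 brown adipocyte markers were counted in every library, with a sum of 3753 to 7490 CPM. The 11 skeletal muscle markers were also counted in every library, with sums of 240.4 CPM in library C to 4665 CPM in library F. Ucp1, the guide target, was counted at 459, 3848, 4619.9, 2704, 396, 3652, 606, 445 and 3937 CPM. These 9 values fell into 2 separate sets, 4 libraries from 396.0 to 605.6 CPM and 5 from 2704 to 4620 CPM. Because the values form separate sets, each of fewer than 6 libraries, no correlation with Ucp1 is given.

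In the respiratory chain, complex II passes electrons from succinate to ubiquinone, complex III passes them from ubiquinone to cytochrome c, and complex IV passes them from cytochrome c to oxygen. Complexes III and IV pump protons, and ATP synthase lets the protons return through a ring of c subunits in the membrane, which turns the catalytic F1 head. In brown fat the protons can return through UCP1 instead, which releases the energy as heat. Brown fat mitochondria are known for a high content of respiratory chain and little ATP synthase, and in mice the amount of ATP synthase in this tissue has been linked to Atp5mc1, one of the 3 genes for the c subunit.

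The c subunit genes are shown first, because 3 genes encode the same protein segment, and within it their RNA can be told apart only by silent base differences. Atp5mc1 lies on chromosome 11, Atp5mc2 on chromosome 15 and Atp5mc3 on chromosome 2, and their coding sequences span 136, 146 and 141 codons. The last 78 residues are identical in all 3, whereas of the 234 bases that encode them 36 differ between Atp5mc1 and Atp5mc2, 50 between Atp5mc1 and Atp5mc3 and 53 between Atp5mc2 and Atp5mc3. The lines below give the first 60 bases of that segment from the GENCODE transcripts of GRCm38, with the 18 positions at which the genes differ in capitals.
Atp5mc1: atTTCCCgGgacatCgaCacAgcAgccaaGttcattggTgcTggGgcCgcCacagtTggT
Atp5mc2: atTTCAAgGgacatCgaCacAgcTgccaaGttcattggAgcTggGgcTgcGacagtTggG
Atp5mc3: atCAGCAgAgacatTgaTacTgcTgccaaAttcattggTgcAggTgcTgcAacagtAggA
The 3 genes therefore differ in letters while the 20 residues encoded in this stretch are the same. Processed copies elsewhere in the genome are much closer to their parent gene. All 408 coding bases of Atp5mc1 are matched at 99.8% identity by the processed pseudogene Gm10039, and all 438 of Atp5mc2 at 100% by Gm10175 and Gm10231. Atp5mc3 has no copy at 95% identity or more. Of the 36 genes, 17 match at least 1 annotated transcript of another gene at that identity over 100 bases or more, and 19 match none. Not all of these matches are processed copies. The only match of Cox5a is a long noncoding RNA, and the only match of Uqcr10 is an antisense transcript.

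Promoters are printed for Cycs, a well-studied target of the nuclear respiratory factors, and for the c subunit and F1 genes that the levels below set apart. The 250 bases before the RefSeq start site were searched on both strands for GCGCANGCG (the core of the NRF1 site), AAGGTCA (the site of the estrogen-related receptors) and ATGGCGG (the core of the YY1 site), 3 factors known for regulating respiratory genes. The NRF1 core was in 8 of the 29 members that had a RefSeq promoter, or 27.6%, and in 5.33% of all 27025 promoters. The receptor site was in 3 members (10.3%) and in 4.05% of all promoters, and the YY1 core was in 1 member (3.45%) and in 2.19% of all. Members' promoters had a median GC content of 54.4%, against 52% for all genes. In the lines below, in RefSeq coordinates of GRCm38.p6, a match is in capitals.
Cycs, chr6:50566570-50566819, minus strand: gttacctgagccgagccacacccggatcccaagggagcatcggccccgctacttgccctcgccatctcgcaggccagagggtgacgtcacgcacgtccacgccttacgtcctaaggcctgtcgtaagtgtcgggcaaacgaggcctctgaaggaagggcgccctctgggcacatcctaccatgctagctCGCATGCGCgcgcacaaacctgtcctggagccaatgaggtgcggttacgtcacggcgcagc
Atp5mc3, chr2:73911327-73911576, minus strand: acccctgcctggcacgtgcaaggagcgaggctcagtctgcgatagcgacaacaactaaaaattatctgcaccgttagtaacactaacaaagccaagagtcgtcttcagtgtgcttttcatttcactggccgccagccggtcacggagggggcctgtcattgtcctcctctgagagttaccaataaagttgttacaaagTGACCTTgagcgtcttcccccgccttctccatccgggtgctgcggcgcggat
Atp5mc1, chr11:96075632-96075881, minus strand: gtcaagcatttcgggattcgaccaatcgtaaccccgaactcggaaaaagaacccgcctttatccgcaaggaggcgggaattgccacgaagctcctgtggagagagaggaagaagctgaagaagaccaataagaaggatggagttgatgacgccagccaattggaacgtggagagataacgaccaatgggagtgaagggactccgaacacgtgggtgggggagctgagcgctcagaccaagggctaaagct
Atp5f1b, chr10:128083057-128083306, plus strand: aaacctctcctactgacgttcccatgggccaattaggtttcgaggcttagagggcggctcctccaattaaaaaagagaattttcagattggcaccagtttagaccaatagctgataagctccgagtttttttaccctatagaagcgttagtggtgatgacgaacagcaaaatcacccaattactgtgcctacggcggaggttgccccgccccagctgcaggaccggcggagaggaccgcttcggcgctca
Cycs held 1 NRF1 core and Atp5mc3 held 1 receptor site, each on the reverse strand of the letters printed. Atp5mc1 and Atp5f1b held none of the 3 motifs in this window. Atp5mc2, whose promoter is not printed, held 2 NRF1 cores. Atp5if1, the inhibitor gene, held 1 match of each motif.

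The 36 genes together made up 1.92 to 2.56% of all counts, from 19201 CPM in library D to 25649 CPM in library H. Complex V contributed 46.2 to 48.2% of their counts in every library, complex III 23.8 to 25.2%, complex II 14.4 to 15.7% and complex IV 10.7 to 12.2%. These shares of counts depend on how many and how long the genes are. Per coding kilobase, median levels of the 36 genes ranged from 18.9 CPM for Atp5mc1 to 2627 CPM for Atp5f1b.

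**Figure D1:**
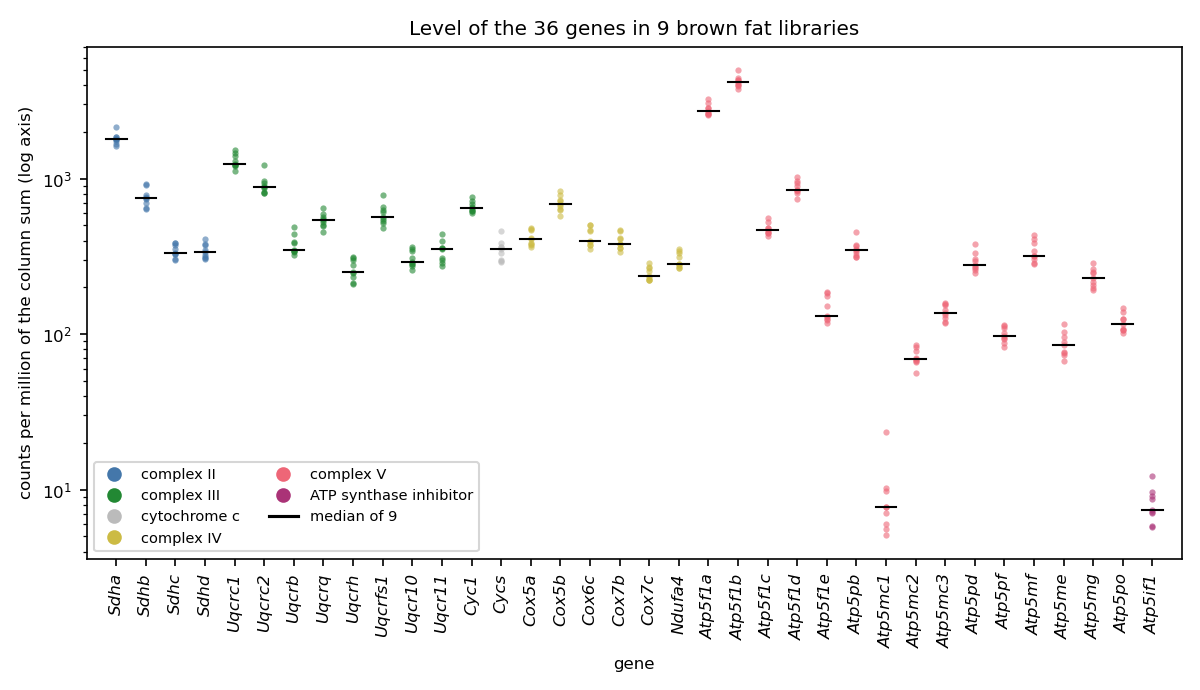
CPM (log axis) of each of the 36 genes, by complex, with 1 point per library and a bar at the median of 9 libraries. CPM are not divided by length here, and median CPM were 4169 for Atp5f1b, 2708 for Atp5f1a, 7.71 for Atp5mc1 and 7.42 for Atp5if1.

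Complex II is the one respiratory complex encoded by nuclear genes alone. Sdha encodes the flavoprotein that oxidises succinate, and its RNA was counted at 1864, 1803, 1809, 1744, 1803, 1676, 1614, 2136 and 1858 CPM. It was highest in library H and lowest in library G, a ratio of 1.32. Sdhb, which encodes the iron-sulfur subunit, was counted at 739.5, 749.9, 912, 642, 699, 764, 643, 927 and 785 CPM. Its 2 highest libraries were H and C. Sdhc, which encodes a membrane anchor that holds the heme, was counted at 376, 300.1, 387, 304, 328, 332, 350.4, 387 and 329 CPM. It had the narrowest spread of the 4 genes, with its lowest value in library B. Per coding kilobase, the median level was 905 CPM for Sdha, 886 for Sdhb, 709.7 for Sdhd (the other anchor) and 654 for Sdhc. The order of Sdha and Sdhb was not the same in every library, since Sdha was below Sdhb in 3 of 9. The Sdhc value depends on the length used, because its principal transcript is long, and it was 105 CPM per kilobase of transcript.

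Complex III holds the core proteins, 2 redox subunits encoded in the nucleus and small accessory subunits. Uqcrc2, one of the core proteins, had the lowest level per coding length of the 9 genes, 653 CPM per kilobase at the median. Its counts were 971, 819, 945, 808, 888, 810.3, 867, 1226 and 896 CPM. The value in library H stood above the other 8, the next being 971 CPM in library A. Uqcrfs1 encodes the Rieske iron-sulfur protein, which takes electrons from ubiquinol, and was counted at 658, 521, 609, 483, 549.7, 538, 624, 785 and 569.5 CPM. It had the widest spread in the complex, 0.70 on the log2 scale between library D and library H. Cyc1, which encodes the cytochrome c1 that hands electrons to cytochrome c, was counted at 682, 623, 717, 599.6, 628, 653, 615, 759 and 645 CPM. Its spread was the narrowest in the complex, 0.34 on the log2 scale. Uqcrq, which encodes a small subunit, had the highest level per coding length, 2213 CPM per kilobase, with counts of 544, 501, 650.4, 454, 498, 569, 526, 593 and 554 CPM. It was highest in library C. The ranks of Uqcrq and Uqcrc2 depend on the length used. Per kilobase of transcript, Uqcrq had 1344 CPM with its shortest principal transcript and 358 CPM with its longest, then the lowest of the 9. Uqcrc2 had 468 CPM per kilobase of transcript, above Uqcrfs1 at 418 and Cyc1 at 424. The other 5 genes (Uqcrc1, Uqcrb, Uqcrh, Uqcr10 and Uqcr11) had medians between 251 CPM for Uqcrh and 1235 CPM for Uqcrc1.

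Cycs encodes the somatic cytochrome c, the carrier between complexes III and IV. It was counted at 386, 298, 362, 294, 351, 289, 366, 458 and 330.4 CPM, highest in library H and lowest in library F, a ratio of 1.58. Per coding kilobase its median was 1115 CPM, but per kilobase of its long transcript it was 112 CPM. Gm10053 matches its 315 coding bases at 100%, and the 4 copies of Cycs together held 0.662% of the counts of gene and copies. How reads that fit several places were treated was not stated, so such a share does not show how many counts a gene lost. The same limit holds for Cox5b and Atp5mg below.

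Among the 6 complex IV genes, Cox5b, which encodes a zinc-binding subunit, had the highest level per coding length (1775 CPM per kilobase) and the widest spread. It was counted at 722, 662, 833, 571, 627, 727, 633, 791 and 687 CPM, with library C highest and library D lowest. The gene Gm11273 matches it at 99.2% over all 387 coding bases and was itself counted at 27.7 CPM. Cox5a, which encodes a subunit on the matrix side, had the lowest level per coding length (929 CPM per kilobase), with counts of 474, 376, 469, 362, 382, 413, 385, 484 and 407 CPM. Its 3 highest libraries, H, A and C, lay between 469 and 484 CPM. Per kilobase of transcript, Cox5a had 631 CPM and Cox7b was the lowest, at 378 CPM. Cox7c, which encodes a small subunit that spans the membrane, had the narrowest spread, 0.36 on the log2 scale, with counts of 229, 224, 269, 223, 225, 266, 237, 286 and 256 CPM. Ndufa4, first described in complex I and now placed in complex IV, had a median of 284 CPM, Cox6c of 396 CPM and Cox7b of 378 CPM.

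Most complex V counts came from its catalytic head. The 5 genes of the F1 head (Atp5f1a to Atp5f1e) held 81.5 to 84.4% of complex V counts, the 4 of the peripheral stalk 7.91 to 9.02%, the 3 small membrane subunits 5.52 to 7.41% and the 3 c subunit genes 1.99 to 2.33%. Atp5f1b, which encodes the catalytic beta subunit, was counted at 4468, 3972, 4320.1, 3782, 4291, 4069.6, 4024, 4978 and 4169 CPM. Atp5f1a, which encodes the alpha subunit, was counted at 3047, 2637, 2841, 2567, 2708, 2597, 2618, 3246 and 2827 CPM. Both were highest in library H and lowest in library D, and Atp5f1a had the narrowest spread of all 36 genes, 0.34 on the log2 scale. The head holds alpha and beta in equal number, and the ratio of Atp5f1b to Atp5f1a per coding kilobase was 1.53 to 1.66. Of the rest of the head, Atp5f1d had a median of 1677 CPM per coding kilobase, Atp5f1e of 839 and Atp5f1c, the central stalk gamma subunit, of 526.

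Each F1 head rests on a ring of several c subunits. The 3 c subunit genes summed to 0.178 to 0.215 of the level of Atp5f1b per coding kilobase, with a median of 0.189. Atp5mc3 was counted at 159, 120.4, 155, 119, 137, 142, 127, 157 and 134 CPM. Atp5mc2 was counted at 78.1, 66.4, 84.9, 56.5, 67.2, 69.1, 70.1, 82.3 and 67.8 CPM. Atp5mc1 was counted at 5.08, 7.72, 7.06, 6.02, 7.71, 23.6, 9.76, 5.62 and 10.2 CPM. The order Atp5mc3, Atp5mc2, Atp5mc1 held in all 9 libraries and no values of these genes overlapped. Per coding length, Atp5mc3 held 66.3, 62.5, 63.4, 66.1, 65.4, 60.9, 62.0, 64.8 and 63.7% of the sum. Atp5mc2 held 31.5, 33.3, 33.6, 30.4, 30.8, 28.6, 33.1, 32.8 and 31.2%. Atp5mc1 held 2.20, 4.16, 2.999, 3.48, 3.798, 10.5, 4.93, 2.40 and 5.04%. The median shares were 63.7, 31.5 and 3.798%. The share of Atp5mc1 depends on the length used, since its longest principal transcript gives a median of 0.576%. As a share of counts, with exact 95% binomial intervals that cover counting error only, Atp5mc1 was 2.10% (1.69 to 2.57%) in library A and 10.0% (9.08 to 11.1%) in library F, so these 2 libraries differed by more than counting error. The low level of Atp5mc1 and Atp5mc2 against Atp5mc3 carries a limit. Both have a copy that matches the whole coding sequence, the copies had a median of 0 CPM each, and the labels and processing notes do not say how reads that fit several places were treated. The part of these copies in the low levels was not tested. Values of 1 gene across libraries share the same copies.

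**Figure D2:**
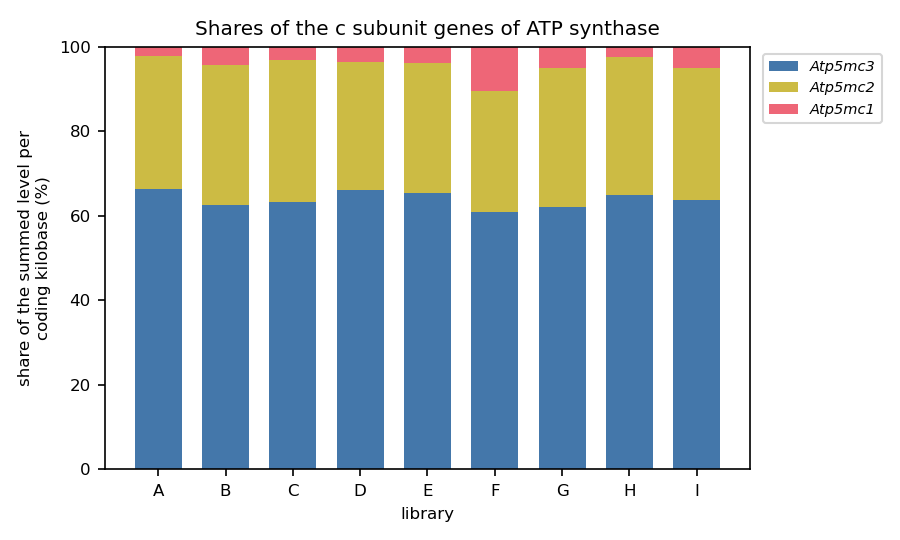
Share of Atp5mc3, Atp5mc2 and Atp5mc1 in their summed level per coding kilobase (%, stacked bars) in each of the 9 libraries. Atp5mc3 was the largest share in all 9, and Atp5mc1 reached 10.5% in library F and 2.20 to 5.04% in the others.

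Copies were also found for genes of the mitochondrial genome, which encodes the cytochrome b of complex III, the catalytic core of complex IV and 2 membrane subunits of complex V. mt-Cytb, with no copy found, and mt-Co1, with a copy at 97.6% over its whole coding sequence, had medians of 72488 and 69433 CPM. mt-Co2, mt-Co3 and mt-Atp6, whose nuclear copies Gm28661, Gm28437 and Gm10925 match at 100%, had medians of 16.5, 9.72 and 19.99 CPM, and these copies were counted at 19.9, 24.4 and 47.5 CPM. mt-Atp8 had a median of 0.987 CPM. The same search found no copy of it, but that search covered annotated transcripts only. The part of copies in these low values was not tested. No level of these mitochondrial genes is therefore set against that of the nuclear subunits.

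In the peripheral stalk and the membrane part, medians ran from 84.8 CPM for Atp5me to 348 CPM for Atp5pb. Atp5pb, the b subunit of the stalk, was 454 CPM in library H, above the other 8 libraries, of which library C was next at 374 CPM. Atp5me, a small membrane subunit needed for ATP synthase to form pairs, had the widest spread of the complex apart from Atp5mc1, 0.78 on the log2 scale, from 67.5 CPM in library E to 115.7 CPM in library C. Atp5mg has 9 copies, the most of any member, and these held 4.15% of the counts of gene and copies. Atp5po, the stalk subunit that gives sensitivity to oligomycin, had 182 CPM per coding kilobase, the lowest of complex V apart from Atp5mc1 and Atp5mc2. The pseudogene Gm5436 matches its 639 coding bases at 97.0%. A second gene entry with its older symbol, Atp5o, matches 243 bases at 100%. The part of these 2 matches in its level was not tested.

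Atp5if1 encodes the protein that blocks ATP hydrolysis by ATP synthase when the proton gradient collapses. It was counted at 5.75, 7.42, 9.59, 5.85, 8.65, 12.3, 9.12, 7.09 and 7.15 CPM. Per coding kilobase its median was 23.3 CPM, above Atp5mc1 and below the other 34 genes, and its ratio to Atp5f1b was 0.00642 to 0.0151, with a median of 0.00932. No copy at 95% identity was found for it. It was highest in library F and lowest in library A, where it rested on 102 counts (95% Poisson interval 83.2 to 123.8).

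Brown fat is known for a low content of ATP synthase. No other tissue was sequenced here, so the complexes are compared only with each other within brown fat. The median over the listed subunits was 776 CPM per coding kilobase in complex II, 966 in complex III, 1414 in complex IV and 526 in complex V. These medians leave out the complex IV subunits with isoform pairs and the small ATP synthase subunits Atp5mj and Atp5mk. Complex V over complex IV was 0.390, 0.363, 0.350, 0.359, 0.387, 0.345, 0.361, 0.358 and 0.350 in the 9 libraries. Complex V over complex III was 0.545, 0.543, 0.497, 0.549, 0.560, 0.481, 0.605, 0.535 and 0.519. Both ratios were under 1 in 9 of 9 libraries, with medians of 0.359 and 0.543, and complex V over complex II was also under 1 in all 9, with a median of 0.663. The ratios to complexes IV and III remained under 1 in all 9 libraries with no length, with transcript lengths, with means over subunits and without the 10 members that a copy matches at 98% or more over 90% of their coding bases, and their medians then ran from 0.504 to 0.618 and from 0.429 to 0.824. The ratio to complex II was under 1 in 5 of 9 libraries with means over subunits, at a median of 0.992, and in 7 of 9 without those 10 members, at 0.897. That complex IV was the highest of the 4 depended on the length: it was highest in 9 of 9 libraries per coding length, with means over subunits and without those 10 members, in 2 of 9 with the shortest and 7 of 9 with the longest principal transcripts, and in 0 of 9 with no length. Complex V was the lowest of the 4 in 9 of 9 per coding length, with transcript lengths and with no length. It was lowest in 5 of 9 with means over subunits and in 7 of 9 without those 10 members. A median over subunits counts the many small subunits of complex V alongside the head, and each of the 3 c subunit genes as a separate subunit. Atp5f1b alone, at 2627 CPM per coding kilobase, was above every other member. These are RNA levels, and the protein was not measured.

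**Figure D3:**
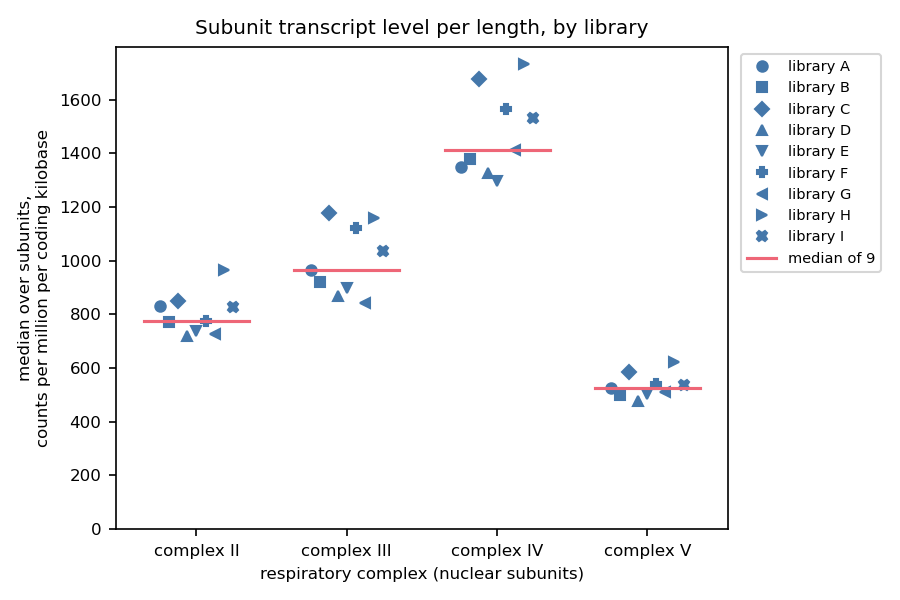
Median over the listed nuclear subunits of complexes II, III, IV and V in CPM per coding kilobase, with 1 symbol per library and a line at the median of 9. Per coding length, complex IV was highest and complex V lowest in all 9 libraries, and the lines lie at 776, 966, 1414 and 526. The place of complex IV changed with the length used. That of complex V changed in some libraries with means over subunits and without members that have a near-identical copy.

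Most of the 36 genes spread less over the libraries than the median gene of the table. The log2 ratio of the highest to the lowest library had a median of 0.52 over the 36, against 0.76 over the 12132 genes with a median of at least 1 CPM and 0.59 over the 1144 with at least 100 CPM. It was below 0.76 for 33 of the 36 and below a 2-fold difference for 34. Since 31 of the 36 genes had at least 100 CPM, the second value is the nearer reference, and 26 of the 36 were below it. By complex, the median was 0.42 in complex II, 0.44 in complex IV, 0.53 in complex V and 0.57 in complex III. All 36 genes were counted in every library and passed the limit of 1 CPM, and 2 of them, Atp5mc1 and Atp5if1, had a median under 10 CPM.

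**Figure D4:**
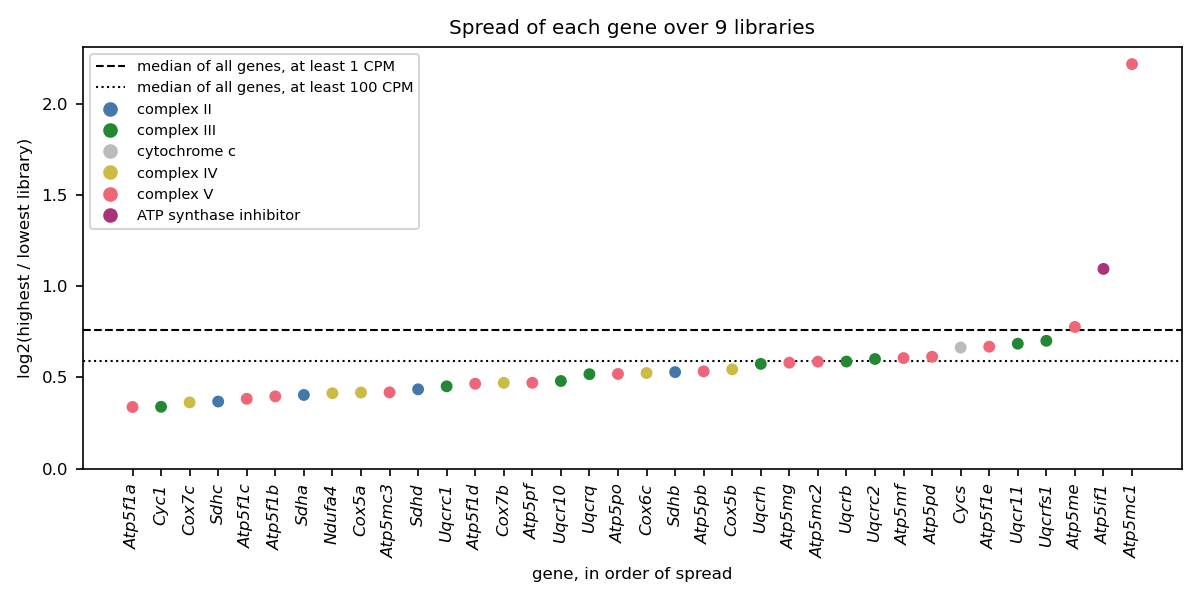
Log2 ratio of the highest to the lowest of 9 libraries for each of the 36 genes in order of spread, coloured by complex, with dashed and dotted lines at the medians of all genes with at least 1 CPM (0.76) and 100 CPM (0.59). Atp5mc1 (2.22), Atp5if1 (1.09) and Atp5me (0.78) lie above the dashed line and the other 33 below it.

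Libraries differed in the level of the whole set. Library H was highest for 22 of the 36 genes and library C for 11, and library D was lowest for 21. Among the 1104 other genes with at least 100 CPM, leaving out 8 genes of the mitochondrial genome and Ucp1, library H was highest for 21.9%, library C for 10.5% and library A for 33.3%, and library D was lowest for 28.2%. Library A was highest for 1 of the 36. Which library was highest or lowest depended on the scaling. With TMM library sizes (trimmed mean of M values) or with DESeq2 size factors, library C was highest for 23 of the 36 and library H for 10, and library D was lowest for 1. Library G then had the lowest sum over the 36 genes, as it did when mitochondrial genome genes and Ucp1 were left out of the column sum, where library D was lowest for 2. The sum over the 36 genes was highest in library H with both of these scalings, and in library C (34664 against 34157 CPM) without the mitochondrial genome genes and Ucp1. The share of counts from the mitochondrial genome was 24.9% in library H, 31.5% in library C and 33.2% in library D. It was 22.3 to 26.5% in libraries A, E, G and H, the set with low Ucp1, and 31.5 to 33.9% in libraries B, C, D, F and I. The part of this share in the order of the libraries, or in other differences between them, was not tested.

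Each gene was also set against the sum over the 36 genes, in which highly counted genes weigh most and complex V held 46.2 to 48.2%. Relative to this sum, Cyc1 varied least, by 0.08 on the log2 scale, followed by Atp5f1c at 0.11 and Uqcrc1 at 0.14. Those that varied most were Atp5mc1 at 2.34, Atp5if1 at 1.17 and Atp5me at 0.58. Transcript length was set beside these values. Members with a transcript under 700 bases (17 genes) were higher against those over 1500 bases (9 genes) by 0.21 on the log2 scale in library C and in library F and lower by 0.17 in library A. Other genes with at least 10 CPM showed a difference of 0.25 in library C, 0.15 in library F and -0.08 in library A between the same length classes. Members and other genes differed more in library H, at 0.01 against 0.16, and in library D, at -0.03 against -0.17. Length and role cannot be told apart here, because the small accessory subunits have the short transcripts.

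Atp5mc1 and Atp5if1, the only members over 2-fold, were both highest in library F. Atp5mc1 differed 4.65-fold between library A and library F, and 2.01-fold when library F was left out. Atp5if1 differed 2.14-fold, and 1.67-fold without library F. The sum of the 11 skeletal muscle markers was 887, 1898, 240.4, 1069, 1231, 4665, 2073, 1029 and 2819.6 CPM, and it was also highest in library F. With library C left out after its values were seen, Atp5mc1 and the muscle sum put the other 8 libraries in the same order. Parts of that order lay within counting error. Atp5mc1 rested on 90, 100 and 103 counts in libraries A, H and D, and on 168 counts in each of G and I. Libraries B and E, at 7.72 and 7.71 CPM of Atp5mc1, also lay within counting error of each other. Library C had the lowest muscle sum, 7.06 CPM of Atp5mc1, above libraries A, D and H, and the second highest value of Atp5if1. Library F also had the highest sum of fibroblast markers, 332 CPM, the highest share of mitochondrial genome counts, 33.9%, and the lowest column sum. The part of muscle RNA, or of these other traits, in these values was not tested.

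**Figure D5:**
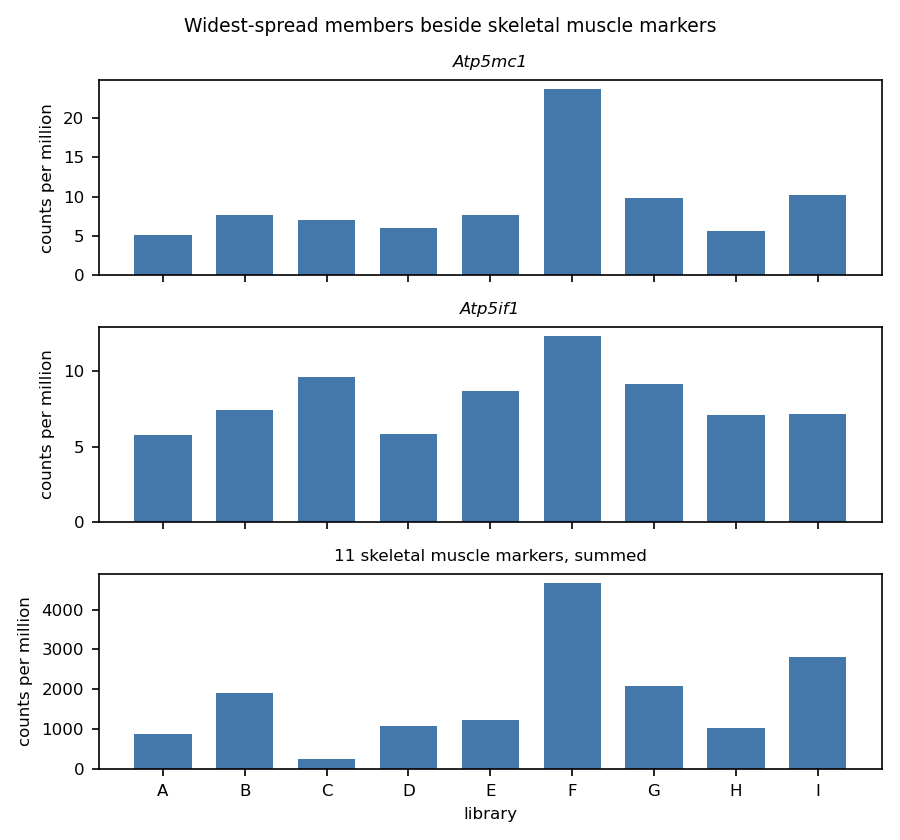
CPM of Atp5mc1, of Atp5if1 and of the sum of 11 skeletal muscle markers (bars from 0) in each of the 9 libraries. All 3 were highest in library F, at 23.6, 12.3 and 4665 CPM, and library C, lowest for muscle at 240.4 CPM, had 7.06 CPM of Atp5mc1 and 9.59 CPM of Atp5if1.

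The assembly factors of these complexes were mostly counted below the subunits, 31 of which had at least 100 CPM. All 33 listed factors were found and had a median of at least 1 CPM, with a median of 31.0 CPM over the 33 and a range from 1.97 CPM for Cox16 to 334 CPM for Coa5, both factors of complex IV. Complex II had Sdhaf2, which attaches the flavin to Sdha, at 39.2 CPM. Complex III had Bcs1l, which inserts the Rieske protein, at 31.0 CPM and Uqcc1 at 103 CPM. Complex IV had Surf1, an early assembly factor, at 33.2 CPM, Cox10 and Cox15, which make its heme, at 63.2 and 67.5 CPM, and Sco2, a copper chaperone, at 2.09 CPM. For complex V, Atpaf2, which helps the alpha subunit to assemble, was counted at 175 CPM, Tmem70, which takes part in building the c ring, at 98.6 CPM, and Atpaf1, which acts on the beta subunit, at 17.8 CPM. Their spread had a median of 0.57 on the log2 scale over the 33, against 0.52 over the subunits. Outside the 36, the 2 small ATP synthase subunits Atp5mj and Atp5mk had medians of 82.5 and 193 CPM.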

How the data were processed

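The tools named per the submitters' processing notes are FastQC, STAR and DESeq2, and the build is GRCm39. Tool versions and roles, the annotation used, strandedness and the treatment of reads that fit several places were not stated in the sources used here. The authors deposited whole-number counts per Ensembl gene in 9 columns, all used. Of the 55416 row IDs, 52083 had a symbol in the gene name table, and these held 99.8% of counts.

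From the counts, CPM were computed on the column sum, with TMM (edgeR 4.0.16) and DESeq2 1.42.0 size factors as alternatives. Lengths are coding lengths of APPRIS principal transcripts in GENCODE M21 (GRCm38), since no annotation of GRCm39 was used. Copies are transcripts of other genes that blastn 2.17.0 matched to a coding sequence at 95% identity or more over at least 100 bases. No 2 libraries agreed within sampling noise: chi-square per gene was 10.9 to 103 over all pairs. The labels do not say whether samples came from separate animals. Counting intervals cover counting error only. The spread calculation was tested on simulated data.

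The genes and lists were chosen with earlier results of these data known. The genes given with the value of every library are, per complex, those with the highest and lowest level per length and the widest and narrowest spread, all Atp5mc genes, Atp5if1, Cycs and Ucp1. Genes described with single-library values beyond this rule (Atp5pb, Atp5me) were chosen after their values were seen.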

Additional observations from a re-analysis of the deposited data

Results flagged for a closer look

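A library was listed where its gap to the nearest of the other 8 was large against the range of all 9, by Dixon's 95% limit. Of 48 values examined (the 36 genes, the sums by complex and part, and the shares of the c subunit genes), 5 were past this limit, and chance passes about 1 in 20 groups. 3 concern library H, the library with the highest sum over the 36 genes. Sdha was 2136 CPM there, against 1864 CPM in the next library. Uqcrc2 was 1226 CPM against 971 CPM. Atp5pb was 454 CPM against 374 CPM. These 3 gaps were 0.520, 0.610 and 0.564 of the range. With TMM they were 0.257, 0.572 and 0.416, so that Uqcrc2 alone of the 3 stayed past the limit, and the same held with DESeq2 size factors and without mitochondrial genome genes and Ucp1. These scalings of the gaps were chosen after seeing the data. The other 2 concern library F, the library with the highest sums of skeletal muscle markers and of fibroblast markers. It also had the highest mitochondrial share of counts and the lowest column sum. Atp5mc1 was 23.6 CPM there, against 10.2 CPM in library I, and its share of the c subunit genes was 10.5%, against 5.04% in library I. The gap of Atp5mc1 was 0.712 to 0.727 of the range under all 4 scalings, and the share does not depend on the scaling. The cause of these gaps was not tested.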

How the results depend on the processing

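Leaving mitochondrial genome genes and Ucp1 out of the column sum raised every median, since the denominator is smaller: to 4734 CPM for complex II, 7494 for complex III, 487 for Cycs, 3524 for complex IV, 14637 for complex V, 11.3 for Atp5if1 and 30927 for all 36. TMM and DESeq2 size factors moved none of these by more than the standard deviation over libraries. The ratio of complex V to complex IV, 0.359 with coding lengths, was 0.565 with no length, 0.550 with means over subunits, 0.504 and 0.618 with the shortest and longest principal transcripts and 0.505 without members that have a near-identical copy. The last choice was made after seeing the data. The ratio to complex III, 0.543 with coding lengths, was 0.429, 0.663, 0.493, 0.685 and 0.824 under the same settings. No median ratio to complex IV or III crossed 1. With the longest transcripts, the median shares were 0.576% for Atp5mc1, 33.2% for Atp5mc2 and 66.1% for Atp5mc3, and with the shortest they were 43.4% for Atp5mc2 and 52.3% for Atp5mc3. The interquartile range of log2 CPM was 0.23 for the 36 genes and 0.30 for all genes with at least 1 CPM. Leaving out each library in turn moved no median level, ratio or share by more than the standard deviation over libraries. The median spread was then 0.45 to 0.52 for the 36 genes and 0.72 to 0.74 for all genes with at least 1 CPM. Leaving out 1 library shifts a median only between neighbouring values, so the small shifts say little about stability. The correlation with Ucp1, with its alternatives, was not run, because Ucp1 fell into 2 sets of fewer than 6 libraries. No paired analysis was possible because no column name holds a replicate number. Atp5mc1, at 5.08 CPM on 90 counts in library A (95% Poisson interval 72.4 to 110.6), is the member most limited by depth.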
